A study of Mus musculus with 4 samples.

Results

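The genes described here are 39 genes of the endoplasmic reticulum (ER) folding and quality control machinery, of 55487 gene identifiers measured in cultured mouse astrocytes. They were taken from a list of ER stress sensors, chaperones, disulfide enzymes and degradation genes, and matched by gene identifier to GENCODE symbols. No expression value was used in the matching. All 39 were found, and all 39 passed the minimum of a mean of 1 CPM (the count divided by the scaled size of its library) over the 4 libraries, as did 15596 genes in all. By role there were 7 sensors and factors, 12 chaperones and co-chaperones, 9 disulfide and prolyl isomerase enzymes and 11 genes of ER-associated degradation. Of these, Ero1l, Ero1lb and Vimp carry the later symbols Ero1a, Ero1b and Selenos.

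The cells were primary cultured astrocytes, labelled OASIS wild type or OASIS deficient, and each genotype was sequenced once untreated and once after doxorubicin. OASIS is the protein of Creb3l1, an ER membrane transcription factor that is cleaved to enter the nucleus. Doxorubicin, which breaks DNA by poisoning topoisomerase II, was applied at 1 µg/ml for 1 h to cells 5 days past confluence, and the cells were kept for 24 h in fresh medium. For the untreated cells the labels give neither the days past confluence nor the time of harvest. Whether treated and untreated cells also differ in culture time thus cannot be told. The labels name neither the allele behind the deficiency nor the strain, age or sex of the mice. With 1 library per group there is no replicate, and nothing in the labels ties the libraries to separate animals.

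Proteins that enter the ER are folded by chaperones such as BiP (Hspa5), by the lectins calnexin and calreticulin, and by enzymes that form disulfide bonds or turn proline bonds. When unfolded protein builds up, the sensors IRE1 (Ern1), PERK (Eif2ak3) and ATF6 raise folding capacity, slow translation and send terminally misfolded protein to the proteasome, a programme called the unfolded protein response. Astrocytes secrete and display many glycoproteins and so use this machinery steadily, and OASIS has been described as an ER stress transducer in these cells.

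Total counts ran from 17481188 to 22559613 per library. Creb3l1 had 966 and 636 counts in the untreated and treated wild-type libraries and 260 and 235 in the corresponding deficient libraries. It fell by 1.46 on the log2 scale with genotype (SE 0.27, edgeR's quasi-likelihood test, Benjamini-Hochberg adjusted p = 0.000973) with reads remaining in both deficient libraries. Xist had 2547 and 2742 counts in the libraries labelled doxorubicin and 1 and 0 in those labelled untreated. The Y-linked Ddx3y had 1567 and 742 counts in the untreated wild-type and deficient libraries and 0 in both labelled doxorubicin, and Eif2s3y, Kdm5d and Uty divided the libraries alike. Treatment and the sex of the culture therefore cannot be told apart in any doxorubicin comparison, and whether each library carries its right label was not tested, so doxorubicin and untreated below are those of the labels. The astrocyte label was borne out by all 10 astrocyte markers, whose summed level was 4041 and 3947 CPM in untreated and treated wild type and 11320 and 10020 CPM in the deficient libraries. Gfap alone was at 1140 and 1120 against 6589 and 5168 CPM. Of the 10, 2 were at least 2-fold higher in the deficient library without treatment and 3 with doxorubicin, beside 9.79% and 10.7% of all genes. Markers of oligodendrocytes (305 and 220 against 809 and 829 CPM), of neurons (228 and 201 against 408 and 437 CPM) and of dividing cells (41.8 and 54.1 against 654 and 942 CPM) were also higher in the deficient libraries. In the genotype test described below, 8 of 10 astrocyte, 9 of 10 oligodendrocyte, 5 of 8 tested neuron and 6 of 6 cell division markers rose, beside 12.6% of all genes. Of 10 oligodendrocyte markers, 1 and 3 were at 0 in untreated and treated wild type and 0 in both deficient libraries. Of 10 neuron markers, 4 and 3 were at 0 in wild type and 0 and 2 in the deficient libraries. Microglial markers summed to 989 and 712 CPM in wild type and 976 and 626 CPM in the deficient libraries. In bulk RNA, fewer cells of a type and less RNA per cell cannot be told apart. Markers of fibroblasts and meninges summed to 378 and 207 CPM in untreated and treated wild type and 325 and 288 CPM in the deficient libraries. With doxorubicin, 9 of 10 microglial and 4 of 6 tested fibroblast markers were lower in wild type, beside 7849 of all 15596 genes. In the deficient cells 10 of 10 and 4 of 6 were lower, beside 7126. The part of cell composition and of cell division in the genotype and doxorubicin results below was not tested.

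A promoter sequence known from genes of this machinery is the ER stress element, or ERSE. Its CCAAT end is bound by the factor NF-Y and its CCACG end is bound by ATF6 and XBP1. It was searched as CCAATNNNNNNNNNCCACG on both strands of the RefSeq promoter windows (GRCm38.p6, 250 bases before to 50 bases after the transcription start). A window was held for 34 of the 39 genes, the others being Atf6, Derl1, Hyou1, Manf and Ppp1r15b. The element occurred in 10 of the 34 genes (29.4%) and in 39 of all 32851 windows (0.119%). The compact form ERSE-II, ATTGGNCCACG, occurred in 2 of the 34 (5.88%) and in 12 of all windows (0.0365%), and either form in 12 of the 34 (35.3%) against 0.155% of windows. The genes were listed for known roles in this response, so the share describes the list. The XBP1 site TGACGTGG was in no window of the 34 genes and in 0.676% of all windows, and the cyclic AMP response element TGACGTCA was in 1 window of these genes, that of Ppp1r15a, and in 1.79% of all windows. Read on the other strand, the XBP1 site begins with the CCACG end of an ERSE, so the 2 motifs can share those bases.

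The elements below are shown because their genes carry the results that follow, with the motif ends in capitals, 5 bases on either side, and each read along the motif's own strand.
Hspa5, chr2:34772020-34772048, plus strand: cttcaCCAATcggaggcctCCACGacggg
Hsp90b1, chr10:86705633-86705661, minus strand: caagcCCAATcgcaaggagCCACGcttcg
Hsp90b1, chr10:86705528-86705556, plus strand: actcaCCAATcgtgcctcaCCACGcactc
Canx, chr11:50325795-50325823, minus strand: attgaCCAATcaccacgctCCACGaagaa
Dnajc3, chr14:118937822-118937850, plus strand: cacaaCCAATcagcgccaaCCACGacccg
Syvn1, chr19:6046527-6046555, plus strand: cgcaaCCAATcggcggtagCCACGggaac
Herpud1, chr8:94386372-94386392, plus strand: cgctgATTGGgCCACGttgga
Ero1lb, chr13:12565677-12565705, minus strand: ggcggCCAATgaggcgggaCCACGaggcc
Derl3, chr10:75893237-75893265, minus strand: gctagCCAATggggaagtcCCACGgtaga

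Canx and Dnajc3 are the pair of single-element genes that stand furthest apart by genotype among those past the test, and their 250 bases before the RefSeq start are given with the element ends in capitals. The first lies on the minus strand of chromosome 11 at chr11:50325674-50325923 and the second on the plus strand of chromosome 14 at chr14:118937682-118937931.
Canx: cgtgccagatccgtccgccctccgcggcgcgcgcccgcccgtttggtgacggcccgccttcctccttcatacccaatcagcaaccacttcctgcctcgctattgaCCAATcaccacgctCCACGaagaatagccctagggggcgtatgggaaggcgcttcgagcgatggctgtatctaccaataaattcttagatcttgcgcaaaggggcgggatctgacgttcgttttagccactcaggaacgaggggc
Dnajc3: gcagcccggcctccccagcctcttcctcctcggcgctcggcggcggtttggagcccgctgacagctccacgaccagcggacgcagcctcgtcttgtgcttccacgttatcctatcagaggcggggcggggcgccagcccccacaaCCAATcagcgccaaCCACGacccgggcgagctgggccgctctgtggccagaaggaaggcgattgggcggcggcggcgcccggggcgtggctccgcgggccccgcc

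**Figure D1:**
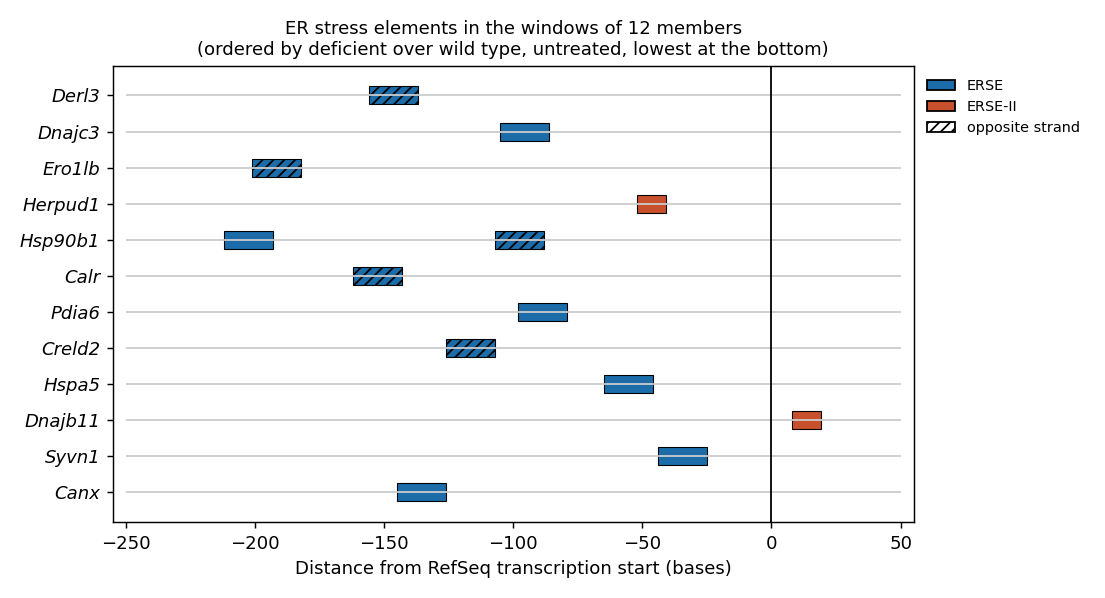
Position of each ERSE and ERSE-II match in the windows of 12 genes, as distance in bases from the RefSeq transcription start; hatching marks a match on the strand opposite the gene, and genes are ordered by the log2 ratio of deficient to wild type without treatment. Of the 12 genes, 2 (Canx and Syvn1) were below wild type in both treatments (36.4% of all genes were), 5 were above in both (36% of all genes were) and 5 changed side.

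As levels per transcript length (deposited TPM, mean of the 4 libraries), the most abundant genes were Ppib at 507 TPM, Hspa5 at 335, Calr at 332, Pdia3 at 332, P4hb at 317 and Canx at 259. These 6 genes made up 52.0% of the summed TPM of all 39. The lowest were Edem3 at 4.69 TPM, Ero1lb at 3.83, Ern1 at 2.91 and Derl3 at 1.75. The IRE1 sensor was thus among the scarcest transcripts of the pathway and the chaperones BiP, calreticulin and calnexin among the most abundant. Neighbours in this order such as Calr and Pdia3 cannot be ranked with 1 library per group. The summed level of the 39 genes was 4041 TPM in untreated wild type, 4194 in treated wild type, 3750 in untreated deficient and 4026 in treated deficient libraries. The 7 sensors and factors summed to 161 and 163 TPM in wild type and to 137 and 125 TPM in the deficient libraries. The 11 degradation genes summed to 572 and 577 TPM in wild type and to 502 and 482 TPM in the deficient libraries. Chaperones summed to 1759 and 1830 against 1589 and 1783 TPM, and disulfide and prolyl isomerase enzymes to 1549 and 1624 against 1522 and 1637 TPM. On TPM the median log2 ratio of deficient to wild type over all genes was itself -0.20 without treatment and -0.09 with doxorubicin. The differences between the sums were not tested.

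The first question was how loss of OASIS altered this machinery. In the model of genotype and treatment over all 4 libraries, 11 of the 39 genes passed the genotype test at an adjusted p of at most 0.05 (28.2%), beside 23.2% of all genes tested. The genes moved in both directions: 7 rose in the deficient libraries (12.6% of all genes did) and 4 fell (10.6% of all genes did). The 7 became 4 in DESeq2, with total counts and without the treatment term, and 3 with no minimum. The 4 became 7 in limma-voom and with total counts. Of the 4, Ppp1r15a was not called in DESeq2, with no minimum or without the treatment term. Edem2 and Syvn1 were also called lower with DESeq2 size factors and with a minimum mean of 5 CPM, and Atf6 was also called higher in limma-voom. The BiP cofactor Manf, the disulfide isomerase Pdia4 and the co-chaperone Dnajc3 rose most, and the lectin chaperone Canx, the mannosidase-like Edem1 and the co-chaperone Dnajb9 fell most. Without adjustment, 20 of 39 genes had p under 0.05, beside 34.5% of all genes. The median genotype difference of the 39 was -0.002 on the log2 scale, beside -0.007 for all genes.

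**Figure D2:**
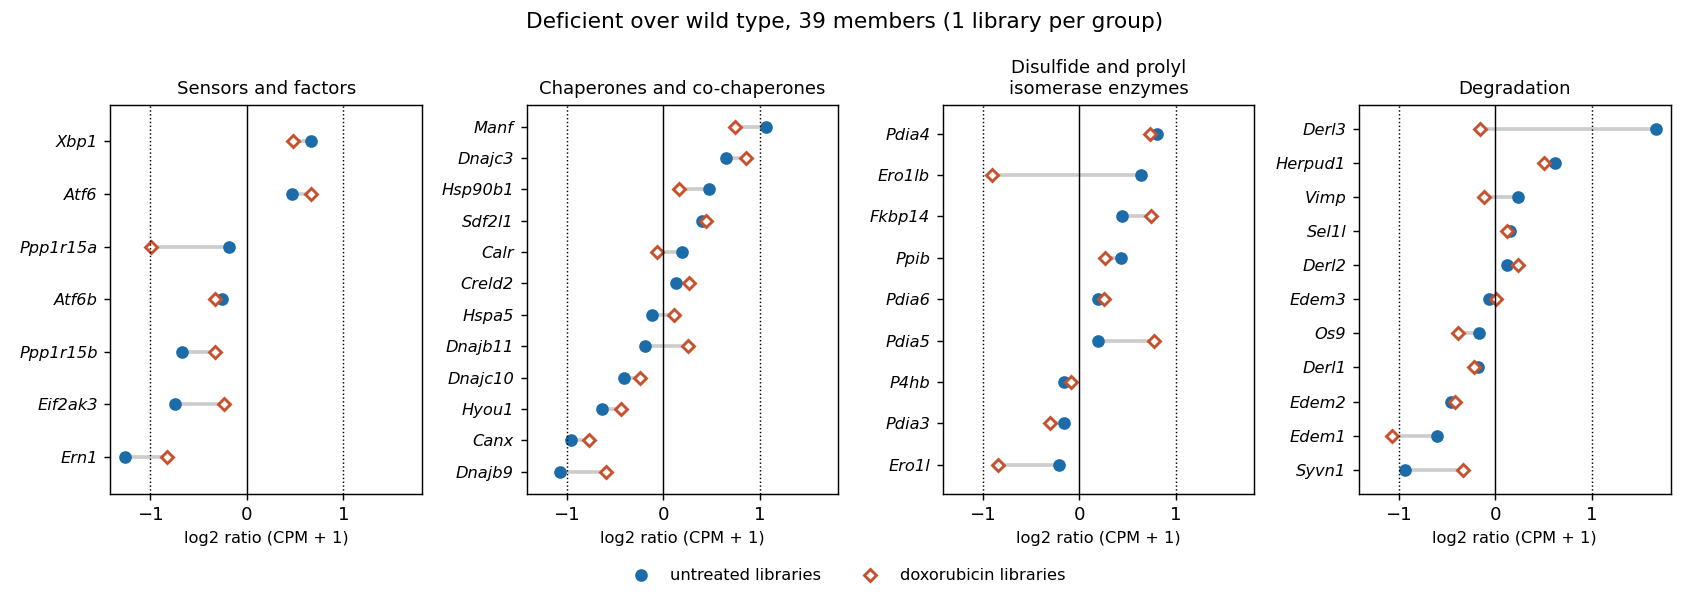
Log2 ratio of deficient to wild type (CPM + 1) for each of the 39 genes, by role; filled circles are the untreated libraries, open diamonds the doxorubicin libraries, and dotted lines mark 2-fold. Genes spread to both sides of 0 in every role, from -1.27 for Ern1 to 1.67 for Derl3 without treatment.

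Among the sensors and factors, 1 of 7 rose, 1 fell and 5 did not pass the test (28.6% called, beside 23.2% of all genes). Xbp1 (chromosome 11, 5520659 to 5525893), the transcription factor whose mRNA IRE1 splices, had 1067 counts in untreated and 1125 in treated wild type, against 1469 and 1362 in the deficient libraries. After scaling, the deficient library was at 159% of wild type in the untreated pair (95% interval 147 to 173%) and at 140% in the treated pair (129 to 152%). The genotype difference was 0.58 on the log2 scale (SE 0.18, edgeR's quasi-likelihood test, Benjamini-Hochberg adjusted p = 0.0254). The call was lost in 3 of 9 settings, DESeq2 among them (adjusted p up to 0.0573). Intervals here and below are exact binomial intervals of a ratio of scaled counts and cover counting error only, since reads that carry no molecular identifier need not come from separate molecules. Gene counts do not separate spliced from unspliced Xbp1.

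Ppp1r15a (chromosome 7, 45522916 to 45526268), the stress-induced subunit of the phosphatase that restores translation by dephosphorylating eIF2α, had 1742 and 2759 counts in untreated and treated wild type and 1317 and 1191 in the deficient libraries. The gap between genotypes was small without treatment (87.5% of wild type, 81.4 to 94.0%) and wide with doxorubicin (49.97%, 46.7 to 53.5%). It fell with genotype by 0.60 on the log2 scale (SE 0.19, edgeR, adjusted p = 0.0298), a call lost in 3 of 9 settings, DESeq2 among them (adjusted p up to 0.0804). Its constitutive counterpart Ppp1r15b had a fitted difference of -0.52 (adjusted p = 0.0929 in edgeR's quasi-likelihood test).

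The 3 sensor genes themselves did not pass the test. Ern1, which encodes the splicing and kinase sensor IRE1, had 234 and 163 counts in untreated and treated wild type and 74 and 71 in the deficient libraries. These are the lowest counts of the sensors, and the deficient library held 36.6% of the wild-type level in the untreated pair (27.8 to 47.7%) and 50.4% in the treated pair (37.6 to 67.0%). The fitted difference of -1.22 had an SE of 0.51 and an adjusted p of 0.103 in edgeR's quasi-likelihood test, with 0.0662 to 0.216 over all settings tried. Eif2ak3, the PERK kinase that slows translation, had 664 and 450 counts in wild type and 335 and 326 in the deficient libraries, with an adjusted p of 0.223 in the same edgeR test. Its untreated deficient level was 58.4% of wild type (51.0 to 66.7%), and 8.0% of its exon bases are shared with the opposite-strand locus Gm43292, which these libraries, which do not mark strand, cannot separate. Atf6, the sensor that is cut in the Golgi to become a transcription factor, went the other way with 525 and 635 counts in wild type and 635 and 881 in the deficient libraries. Its fitted difference was 0.585 (SE 0.23, edgeR adjusted p = 0.0817, and 0.049 to 0.183 over all settings tried). Atf6 was called in 1 of 9 settings, limma-voom. Its relative Atf6b was at -0.30 (edgeR adjusted p = 0.321).

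Of the 12 chaperones and co-chaperones, 3 rose, 2 fell and 7 did not pass the test (41.7% called, beside 23.2% of all genes). Manf (chromosome 9, 106838312 to 106891979), a small secreted protein that steadies BiP with its clients, had 1607 and 2173 counts in untreated and treated wild type and 2920 and 3171 in the deficient libraries. Manf reached 210% of wild type in the untreated pair (198 to 224%) and 169% in the treated pair (160 to 179%), a rise of 0.91 on the log2 scale (SE 0.14, edgeR's quasi-likelihood test, adjusted p = 0.000222). Dnajc3 (chromosome 14, 118937976 to 118981697), a BiP co-chaperone that also inhibits PERK, had 3095 and 3521 counts in wild type and 4214 and 5548 in the deficient libraries. Dnajc3 was at 158% of wild type in the untreated pair (150 to 165%) and at 182% in the treated pair (175 to 190%). It rose by 0.76 (SE 0.12, edgeR, adjusted p = 0.000279). Hsp90b1 (chromosome 10, 86690209 to 86705509), the ER form of HSP90, had 6713 and 10168 counts in wild type and 8081 and 9853 in the deficient libraries. Its rise was small, 0.32 (SE 0.11, edgeR, adjusted p = 0.0453), and was called in 5 of 9 settings (adjusted p up to 0.168). Of its exon bases, 10.3% overlap an opposite-strand pseudogene.

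Canx (chromosome 11, 50293961 to 50325673), the membrane lectin calnexin that holds newly made glycoproteins until they fold, had the smallest p of the 39 genes. It had 17503 and 18280 counts in untreated and treated wild type and 7813 and 9293 in the deficient libraries, or 879 and 798 against 454 and 470 CPM. Deficient cells held 51.7% of the wild-type level in the untreated pair (50.3 to 53.1%) and 58.9% in the treated pair (57.4 to 60.3%). It fell by 0.86 on the log2 scale (SE 0.10, edgeR's quasi-likelihood test, adjusted p = 1.1e-05). Its soluble partner Calr, which binds the same sugar, had 7550 and 10955 counts in wild type and 7467 and 9061 in the deficient libraries, at 114% and 95.8% of wild type (fitted difference 0.07, edgeR adjusted p = 0.724). The difference between the lectin genes was not tested. Dnajb9 (chromosome 12, 44205559 to 44210326), a BiP co-chaperone that restrains IRE1, had 1164 and 1285 counts in wild type and 472 and 730 in the deficient libraries, at 46.9% (42.1 to 52.3%) and 65.8% (60.0 to 72.1%) of wild type. It fell by 0.85 (SE 0.22, edgeR, adjusted p = 0.00955).

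Hspa5 (chromosome 2, 34771970 to 34777547), the central ER chaperone BiP and the usual readout of this response, had 12406 and 15019 counts in wild type and 9894 and 14012 in the deficient libraries. In the untreated pair it was slightly lower in deficient cells (92.3%, 89.9 to 94.8%) and in the treated pair slightly higher (108%, 105 to 111%). The fitted difference was -0.002 (SE 0.0994), with an adjusted p of 0.99 in edgeR's quasi-likelihood test. The other chaperones that did not pass were Hyou1 at -0.57, Dnajc10 at -0.32, Dnajb11 at 0.04, Creld2 at 0.20 and Sdf2l1 at 0.44, with adjusted p from 0.101 to 0.888 in the same edgeR test.

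**Figure D3:**
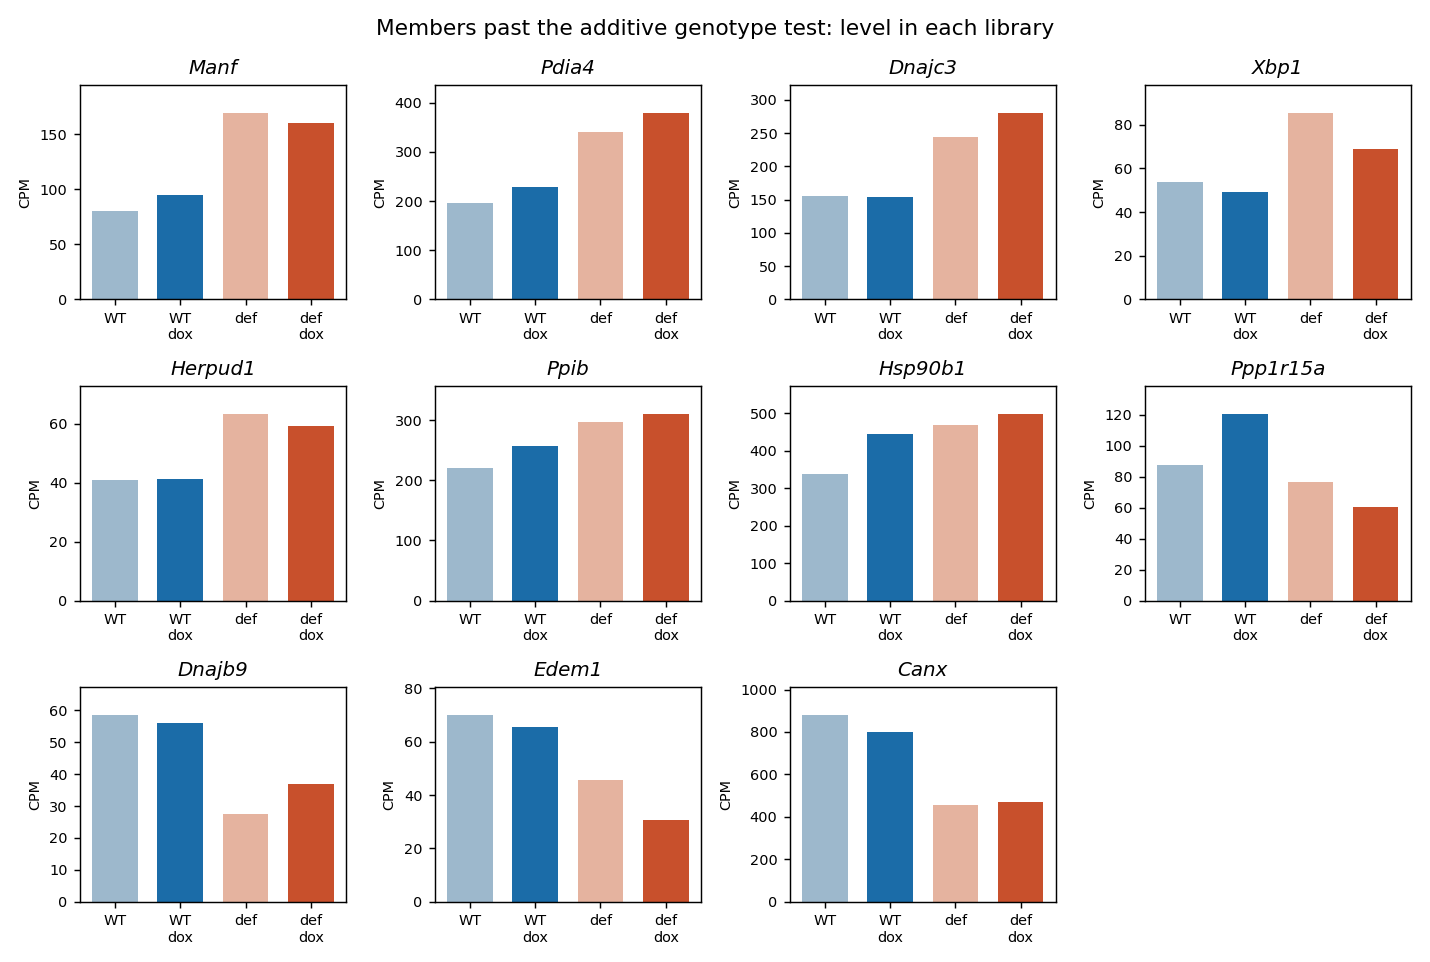
CPM in each library for the 11 genes past the genotype test; each bar is 1 library (WT, wild type; def, deficient; dox, doxorubicin), so there are no error bars, and each axis starts at 0. In the 7 genes that rose, both deficient bars stand above both wild-type bars, and in the 4 that fell both stand below. Herpud1 was at 63.3 and 59.2 against 40.9 and 41.3 CPM, and Hsp90b1 at 470 and 498 against 337 and 444 CPM. The genes were chosen by the test on these same libraries, so the separation largely follows from the choice and adds no support.

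Of the 9 disulfide and prolyl isomerase enzymes, 2 rose, 0 fell and 7 did not pass the test (22.2% called, beside 23.2% of all genes). Pdia4 (chromosome 6, 47796141 to 47813430), a protein disulfide isomerase, had 3889 and 5224 counts in untreated and treated wild type and 5876 and 7500 in the deficient libraries. Deficient cells were at 175% of wild type in the untreated pair (168 to 182%) and at 166% in the treated pair (160 to 172%), with intervals that overlap. It rose by 0.77 on the log2 scale (SE 0.11, edgeR's quasi-likelihood test, adjusted p = 0.000115). Ppib (chromosome 9, 66060222 to 66066623), the prolyl isomerase cyclophilin B, had 4394 and 5881 counts in wild type and 5125 and 6133 in the deficient libraries, a rise of 0.35 (SE 0.11, edgeR, adjusted p = 0.0356) that was lost in 3 of 9 settings (adjusted p up to 0.0788). Of its 3305 exon bases, 825 overlap Snx22 on the opposite strand, so its counts may hold reads of that gene.

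Ero1l, the oxidase that recharges disulfide isomerases, had 902 and 1156 counts in wild type and 671 and 549 in the deficient libraries. The deficient cells were at 86.1% of wild type in the untreated pair (77.8 to 95.2%) and at 54.98% in the treated pair (49.6 to 60.9%), and the fitted difference of -0.54 had an edgeR adjusted p of 0.108. Its paralog Ero1lb had 186 and 237 counts in wild type and 260 and 100 in the deficient libraries. The untreated deficient library was the highest and the treated one the lowest of the 4, and the fitted difference was -0.16 (edgeR adjusted p = 0.858). Fitted differences of the abundant isomerases were small, with P4hb at -0.12, Pdia3 at -0.23 and Pdia6 at 0.23, and the rarer Pdia5 and Fkbp14 were at 0.53 and 0.62. Their adjusted p in the edgeR test ran from 0.0912 to 0.41.

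Of the 11 degradation genes, 1 rose, 1 fell and 9 did not pass the test (18.2% called, beside 23.2% of all genes). Herpud1 (chromosome 8, 94386438 to 94395377), a membrane scaffold of the ubiquitin ligase complex, had 814 and 946 counts in untreated and treated wild type and 1089 and 1170 in the deficient libraries. It rose by 0.57 on the log2 scale (SE 0.19, edgeR's quasi-likelihood test, adjusted p = 0.0429), a call lost in 3 of 9 settings, DESeq2 among them (adjusted p up to 0.0963). Edem1 (chromosome 6, 108828641 to 108859356), which trims mannose from misfolded glycoproteins, had 1393 and 1503 counts in wild type and 787 and 610 in the deficient libraries. Edem1 was at 65.4% of wild type in the untreated pair (59.8 to 71.4%) and at 47.0% in the treated pair (42.7 to 51.7%), and the gene fell by 0.85 (SE 0.20, edgeR, adjusted p = 0.00578). Syvn1, the ubiquitin ligase HRD1, had 935 and 825 counts in wild type and 413 and 563 in the deficient libraries, with a fitted difference of -0.65 (edgeR adjusted p = 0.0667, and 0.0313 to 0.148 over all settings tried). Its partner Sel1l was at 0.14 (adjusted p = 0.531), and the Edem1 relatives Edem2 and Edem3 were at -0.44 and -0.03 (adjusted p 0.0585 and 0.956). Os9, Derl1, Derl2 and Vimp lay between -0.28 and 0.18, and the scarce Derl3 was at 1.84 with an SE of 1.52 (edgeR adjusted p = 0.437).

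Between single libraries, where size alone was used, few of the 39 genes differed by at least 2-fold. The shares of all genes, here and elsewhere, include genes down to a mean of 1 CPM and were not matched to the level of the 39. Without treatment 2 were at least 2-fold higher in the deficient library (Manf at 1.06 and Derl3 at 1.67), beside 9.79% of all genes, and 2 were at least 2-fold lower (Ern1 at -1.27 and Dnajb9 at -1.07), beside 10.2%. With doxorubicin 0 of 39 were 2-fold higher, beside 10.7% of all genes, and 1 was 2-fold lower (Edem1 at -1.07), beside 9.55%. The genes just inside the 2-fold bound without treatment were Manf and Dnajb9, and those just outside were Pdia4 at 0.80 and Canx at -0.95. Across the 39 genes the ratio was below 0 in both treatments for 17 (36.4% of all genes were) and above 0 in both for 15 (36% of all genes were), and 7 changed side: Hspa5, Calr, Dnajb11, Ero1lb, Derl3, Edem3 and Vimp. The untreated and treated ratios had a Pearson correlation of 0.63 over the 39 genes and 0.69 over all 15596 genes, as a description of 4 libraries that are scaled together.

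Scaling by transcript length moved the centre of this comparison. On the deposited TPM the median ratio of all genes without treatment was -0.20, against -0.03 on CPM, and all genes split into 1221 higher and 2095 lower by 2-fold, against 1527 and 1588. The 39 genes then split into 1 higher and 4 lower (Ern1, Canx, Dnajb9 and Syvn1), against 2 and 2. Of the 11 genes past the test, 0 changed sign on TPM in either genotype comparison, and 4 of the other genes did without treatment (Calr, Creld2, Pdia6 and Sel1l) and 4 with doxorubicin (Hspa5, Sel1l, Derl2 and Edem3). Hspa5 in the treated pair went from 0.11 on CPM to -0.01 on TPM.

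Genes of the same pathways outside the 39 were counted in 4 lists, beside 12.6% of all genes that rose and 10.6% that fell in the same test. Of 21 genes of the translocon and oligosaccharyltransferase, which admit and glycosylate new chains, 2 rose and 0 fell with genotype. That was 9.52% called, beside 23.2% of all genes. They were the channel subunits Sec61g at 0.96 (edgeR's quasi-likelihood test, adjusted p = 0.00383) and Sec61b at 0.53 (adjusted p = 0.0126), while the pore subunit Sec61a1 was at -0.29 (adjusted p = 0.0932). Of 25 other folding enzymes, 4 rose and 3 fell (28% called). The prolyl isomerase Fkbp2 had 314 and 399 counts in wild type and 798 and 835 in the deficient libraries, a rise of 1.42 (SE 0.25, edgeR adjusted p = 0.000587). The sulfhydryl oxidase Qsox1 fell by 0.79 (edgeR adjusted p = 0.00437), and Fkbp11 was at 0.73 (adjusted p = 0.298). Txndc5, Fkbp10 and Sil1 also rose, and Fkbp9 and Uggt1, the glucosyltransferase that returns unfolded glycoproteins to calnexin, fell by 0.61 and 0.73.

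Of 19 other degradation genes, 0 rose and 2 fell (10.5% called, beside 23.2% of all genes). They were Nploc4, a cofactor that helps pull chains from the membrane, at -0.60 (edgeR adjusted p = 0.00952) and Aup1 at -0.47 (adjusted p = 0.0278). Fam8a1 and Tmem129 were at -0.50 and 0.48 (adjusted p = 0.136 and 0.101 in the same edgeR test). Of 19 stress factors outside the members that were tested, Creb3l1 included, 3 rose and 3 fell (31.6% called). The apoptosis regulator Bok rose by 1.74, from 83 and 220 counts in wild type to 380 and 410 (edgeR adjusted p = 0.00497). Nfyb and Nfyc encode partner subunits of the CCAAT factor NF-Y, and Nfyb fell by 1.19 (1529 and 1524 counts against 561 and 594, edgeR adjusted p = 0.000336) while Nfyc rose by 0.85 (adjusted p = 0.00545). Creb3l2, the closest relative of OASIS, rose by 0.66 (edgeR adjusted p = 0.0479), and Tmbim6 fell by 0.45. The PERK branch genes Atf4 and Ddit3 did not pass, at -0.09 and -0.66 (edgeR adjusted p = 0.707 and 0.102). Txndc5, Fkbp10, Sil1, Fkbp9, Uggt1, Aup1, Nfyc, Creb3l2, Tmbim6, Atf4 and Ddit3 were chosen for naming after their values were seen.

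The second question was how doxorubicin changed this machinery in each genotype. In the additive model 0 of 39 genes passed the treatment test in edgeR, and 0 in DESeq2 and in limma-voom, beside 0.16% of all genes (0.0192% higher and 0.141% lower). Without adjustment 1 of 39 had p under 0.05, beside 5.54% of all genes: Hsp90b1, at 0.24 (adjusted p = 0.875 in edgeR's quasi-likelihood test). The same test made 0 calls in each of the 4 lists of related genes.

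Between the single wild-type libraries 1 of 39 genes was at least 2-fold higher with doxorubicin (Derl3 at 1.20), beside 4.08% of all genes, and 0 were 2-fold lower, beside 5.45%. Between the deficient libraries 0 were 2-fold higher, beside 1.58%, and 1 was 2-fold lower (Ero1lb at -1.41), beside 1.93%. The median ratio of the 39 genes was 0.07 in wild type and 0.01 in the deficient cells. Hspa5 was at 105% of untreated in wild type (103 to 108%) and at 123% in the deficient cells (120 to 127%). Canx was at 90.9% (89.0 to 92.8%) and 104% (100.4 to 107%). Hsp90b1 was at 132% (128 to 136%) and 106% (103 to 109%), and Manf at 118% and 94.5%. Chaperone ratios lay above 0 in 7 of 12 genes in wild type and in 10 of 12 in the deficient cells, all within 2-fold, beside 7710 and 8387 of all 15596 genes.

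**Figure D4:**
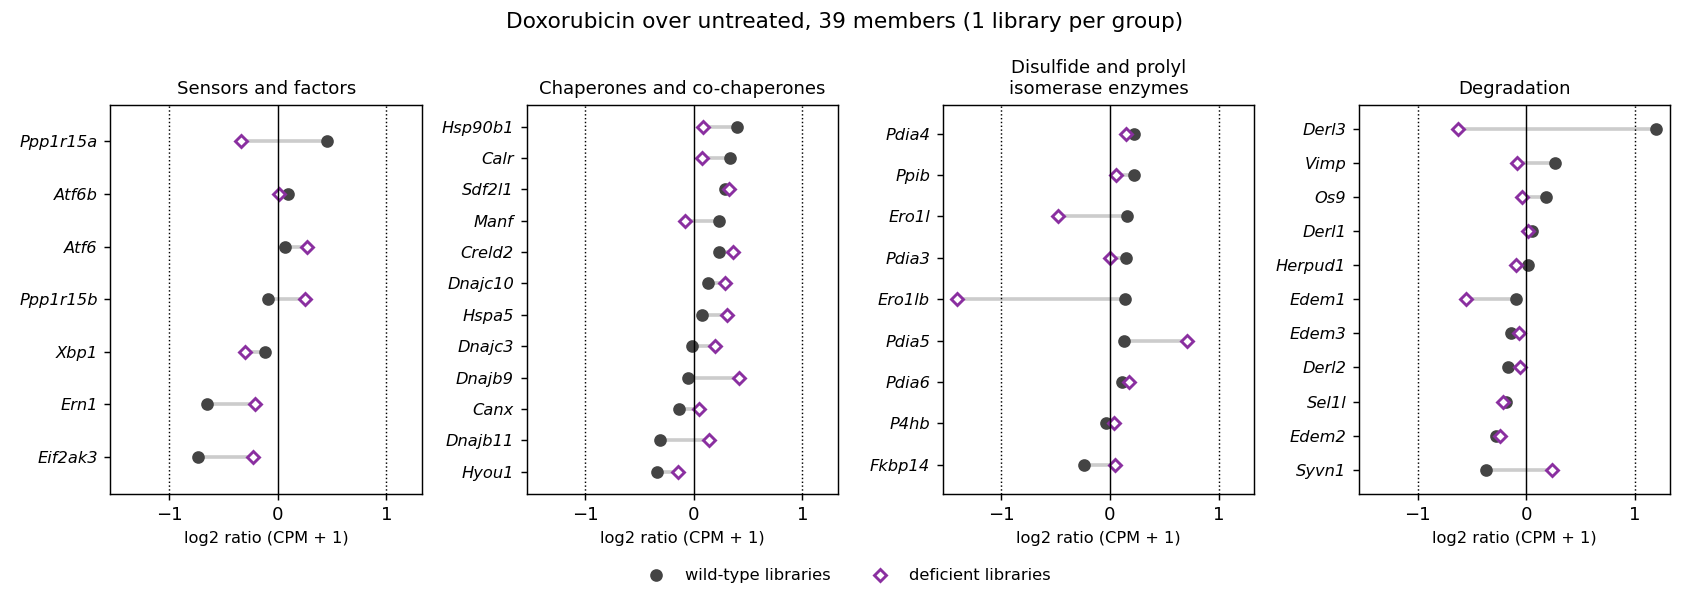
Log2 ratio of doxorubicin to untreated (CPM + 1) for each of the 39 genes, by role; filled circles are the wild-type libraries, open diamonds the deficient libraries, and dotted lines mark 2-fold. Most genes lie within 0.5 of 0, and the widest gaps between genotypes are those of Derl3 (1.20 and -0.63) and Ero1lb (0.14 and -1.41).

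The sensors Ern1 and Eif2ak3 were at 60.6% (49.3 to 74.3%) and 59.0% (52.2 to 66.6%) of untreated in wild type, and at 83.5% (59.4 to 117%) and 84.7% (72.5 to 98.9%) in the deficient cells. On the deposited TPM the Ern1 response in the deficient cells turned upward, from 0.899 to 1.57 TPM. Ppp1r15a was at 138% of untreated in wild type (130 to 146%) and at 78.7% in the deficient cells (72.7 to 85.2%). The difference of responses, deficient minus wild type, was at least 2-fold higher for 0 of 39 genes, beside 7.66% of all genes, and at least 2-fold lower for 2, beside 6.05%. They were Derl3 at -1.83 and Ero1lb at -1.55. Derl3, a derlin of the channel that exports misfolded protein, had 2 counts in untreated wild type, 35 in treated wild type, 43 in untreated deficient and 25 in treated deficient cells. Its untreated ratio of 24.9 had an interval from 6.48 to 212, so the size is poorly fixed at this depth. Ppp1r15a followed at -0.80, and Pdia5 and Syvn1 were the highest on CPM at 0.59 and 0.61. On TPM the highest was Ern1 at 1.69, past 2-fold, against 0.44 on CPM. Ero1lb was inside 2-fold on TPM at -0.97, and Ero1l was past it at -1.21. The dependence of a response on genotype could not be tested with 1 library per group. Each response also compares libraries that differ in their Xist and Y-linked counts, as described above.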

How the data were processed

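RNA was sequenced from 4 cultures, 1 per combination of OASIS genotype and treatment. Libraries came from the SMART-Seq v4 protocol, per the labels, and carry no strand information. The authors deposited estimated counts per gene, not normalized, per the file headers; they were rounded to whole numbers. TPM, scaled by transcript length and library size, were deposited beside them and served for levels between genes and as an alternative. The submitters' processing notes name DRAGEN and GRCm38; versions, read filters and the annotation release are not stated there. Symbols and positions came from GENCODE vM21 (55227 of 55487 identifiers matched) and promoters from RefSeq.

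Counts were scaled to CPM with edgeR's TMM factors (0.98 to 1.02). Log2 ratios used CPM + 1, which understates the change of low genes, and a ratio of at least 1 or at most -1 was called by size. The upper limit for a count of 0 (3 counts) was 0.131 to 0.174 CPM. For genotype and for treatment, 1 additive model of the 4 libraries was fitted to 15596 genes with a mean of at least 1 CPM. It was tested with the quasi-likelihood method of edgeR and called at a Benjamini-Hochberg adjusted p of at most 0.05. Each SE was computed back from the test, as the absolute log2 difference divided by the square root of its F statistic. It thus holds no information beyond the difference and its test. The model's single residual degree of freedom (1) mixes noise with any response that depends on genotype. edgeR joined it to 14.3 prior degrees of freedom (median) drawn from all genes tested. The p-values and SEs therefore rest mostly on a spread shared between genes, not on each gene's own. They reflect these 4 libraries alone, whose spread may be technical. On simulated counts for the genotype test, with 15596 genes, 50 of 100 genes changed 2-fold and 71 of 100 changed 4-fold were recovered, beside 1 false call. The simulated counts held no treatment effect and no response that depends on genotype, and took their dispersion from the fitted trend. No other genes were changed in them, whereas 23.2% of genes were called in the data. The false call therefore does not measure the error rate of the real test. Genes were named by rule: those called by size or by test, the highest and lowest untreated genotype ratio of each role, Hspa5, Hsp90b1, Xbp1, the 3 sensors and Creb3l1, and up to 3 genes of each related list with the largest untreated genotype ratio and a mean of at least 5 CPM. The members, lists and rules were chosen with earlier results of these data known. Alternatives were DESeq2 and limma-voom, other scalings, pseudocounts of 0.5 and 5 CPM, other minimums, TPM, a model of 1 factor, and a test without the genes on X and Y. Software was R 4.3.3, edgeR 4.0.16, limma 3.58.1, DESeq2 1.42.0, Python 3.11.15, scipy 1.17.1 and pandas 2.3.3.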

Additional observations from a re-analysis of the deposited data

Results flagged for a closer look

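On CPM, the doxorubicin responses of Ero1lb and Derl3 pointed in opposite directions in the 2 genotypes and differed by at least 2-fold. Ero1lb was at 0.14 on the log2 scale in wild type and at -1.41 in the deficient cells, a difference of -1.55 (186, 237, 260 and 100 counts in untreated wild type, treated wild type, untreated deficient and treated deficient cells). Derl3 was at 1.20 and -0.63, a difference of -1.83, on 2, 35, 43 and 25 counts. On the deposited TPM, Ero1lb was below 0 in both genotypes, at -0.13 in wild type and -1.10 in the deficient cells. Its difference of -0.97 was then inside 2-fold. Derl3 kept its opposite directions on TPM, at 1.13 and -0.82. Each value rests on 1 library per group, and the difference was not tested.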

How the results depend on the processing

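No 2-fold ratio between 2 libraries of the 19 genes named by rule changed sign under any alternative tried, and none of the 11 fitted differences past the genotype test did. Smaller ratios did change sign on TPM, among them the doxorubicin ratios of Herpud1 and Edem1 in wild type (0.02 to -0.24 and -0.09 to 0.34). For genotype without treatment, the main counts of 2 higher and 2 lower became 1 and 0 with 5 CPM added, 1 higher with a minimum mean of 5 CPM, and 1 and 4 on TPM. For genotype with doxorubicin, the 1 lower gene became 2 with DESeq2 size factors, 2 with total counts, 0 with 5 CPM added and 3 on TPM. For doxorubicin in wild type, the 1 higher gene became 0 with 5 CPM added and 0 with a minimum mean of 5 CPM, and 1 gene was lower on TPM. In the deficient cells the 1 lower gene became 0 with 5 CPM added. For the difference of responses, the 2 lower genes became 1 with 5 CPM added and 1 with a minimum mean of 5 CPM. On TPM 1 gene (Ern1) was higher, and the lower genes were Derl3 at -1.955 and Ero1l at -1.21. Ero1lb was no longer among them, at -0.97. The minimum mean of 5 CPM removes Derl3. In the genotype test, the 7 genes that rose became 4 in DESeq2, 4 with total counts, 4 without the treatment term and 3 with no minimum. The 4 that fell became 7 in limma-voom and 7 with total counts. Of those 4, Ppp1r15a was lost in DESeq2, with no minimum and without the treatment term. Edem2 and Syvn1 were gained with DESeq2 size factors and with a minimum mean of 5 CPM. Among the genes that rose, Atf6 was gained in limma-voom. The cause of these changes was not tested. Canx, Dnajb9, Dnajc3, Edem1, Manf and Pdia4 were called in all 9 settings, Herpud1, Ppib, Ppp1r15a and Xbp1 in 6, and Hsp90b1 in 5. Of 528 values of named genes between libraries 478 moved by no more than the counting error of the main value, and of 298 values from the additive tests 277 kept their side of the threshold. No paired analysis was possible because each group holds 1 library, and for the same reason no library could be left out of a group. Depth limits Derl3, Ern1 and Ero1lb most, and the lack of replicates limits every value.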

Other observations

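Chaperones of the cytosol and mitochondria, which serve other compartments than the ER, also moved in both directions with genotype. Of 19, 3 rose and 2 fell in edgeR's quasi-likelihood test (26.3%, near the 23.2% of all genes). The inducible HSP70 genes Hspa1b and Hspa1a fell by 2.19 and 1.51 on the log2 scale (edgeR adjusted p = 1.13e-05 and 0.00217), from 1000 and 1149 counts in untreated and treated wild type to 196 and 210 for Hspa1b, and from 728 and 604 to 168 and 239 for Hspa1a. These are near-identical copies whose reads can be split between them, so the value of each alone is uncertain. Hspe1, Hspb8 and Cryab, chosen for naming after their values were seen, rose by 0.52, 0.46 and 0.38 (edgeR adjusted p = 0.0141, 0.00235 and 0.0134). Hsf1, the factor that induces the HSP70 genes, had 1125 and 1083 counts in wild type and 542 and 723 in the deficient libraries, at -0.61 (adjusted p = 0.0566). The treatment test made 0 calls in this list.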
